A study of Homo sapiens with 4 samples.

Results

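The epidermal differentiation complex is a cluster of genes at 1q21 whose products build and regulate the outer layers of the skin. Its windows were taken from the deposited 5hmC-Seq table as the listed windows of 500 bp on chromosome 1 of hg19 with a start at or after 151900001 and a stop at or before 153700000. Of the 956365 windows of the table, 675 fulfilled this rule. They are 675 of the 3600 windows that tile the interval, none of which holds an undetermined base. All 5 marker genes of the complex, FLG, LORICRIN (formerly LOR), IVL, S100A8 and S100A9, lie inside these bounds. The nearest listed windows inside the bounds start at 151906501 and 153699501, and the nearest ones outside start at 151898501 and 153701501.

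The table was made from FADU cells, an established line from a human hypopharyngeal squamous cell carcinoma, carrying either a scrambled control or a TET1 knockdown. There was 1 library for each of 4 conditions: normoxia with the scrambled control, normoxia with the knockdown, hypoxia at 1% oxygen for 18 h with the scrambled control, and hypoxia at 1% oxygen for 19 h with the knockdown. The control and knockdown vectors were delivered by lentivirus, and 1 cell line stands for the tumour type. The sample titles read hMeDIP-seq, a term the paper uses for detection of 5hmC. Other labels name an antibody to methylated cytosine, whereas the methods describe chemical labelling of 5hmC, so that the enriched mark is uncertain. The 4 columns of values carry names that match no condition, and they were not used. Each result below is therefore a statement on which windows the table lists, pooled over conditions. It does not say in which condition a window had reads, and a window that is absent may still have had reads. No difference between hypoxia and normoxia, or between control and knockdown, was analysed here.

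Keratinocytes that leave the basal layer replace their membrane with a cornified envelope, a protein shell cross-linked by transglutaminases. Involucrin (IVL) forms its first scaffold, and loricrin, the small proline-rich proteins (SPRR) and the late cornified envelope proteins (LCE) reinforce it. The fused-type S100 proteins, among them profilaggrin (FLG), trichohyalin (TCHH) and hornerin (HRNR), join a calcium-binding S100 domain to long tandem repeats and bundle keratin filaments. The single S100 genes at both ends of the complex encode small calcium-binding proteins with roles in inflammation, motility and proliferation. Methylated and hydroxymethylated cytosines of differentiated cells occur mainly at CpG sites, so that enrichment for either mark depends on how many CpG sites a fragment has.

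The start regions of the marker genes are shown first, because CpG sites are the substrate of the mark and these regions have few of them. Each sequence is the 300 bases directly upstream of the canonical start in GRCh37, 5′ to 3′ on the strand of the gene, and the capitals mark CpG sites. S100A11, which encodes calgizzarin, is shown as the contrast with many CpG sites.
FLG (chr1:152297716-152298015, minus strand): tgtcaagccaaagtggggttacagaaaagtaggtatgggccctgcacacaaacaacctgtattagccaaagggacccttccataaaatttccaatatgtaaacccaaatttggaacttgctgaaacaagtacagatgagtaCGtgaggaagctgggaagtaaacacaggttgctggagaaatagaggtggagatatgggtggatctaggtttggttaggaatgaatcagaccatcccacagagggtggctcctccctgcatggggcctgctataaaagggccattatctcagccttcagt
LORICRIN (chr1:153231863-153232162, plus strand): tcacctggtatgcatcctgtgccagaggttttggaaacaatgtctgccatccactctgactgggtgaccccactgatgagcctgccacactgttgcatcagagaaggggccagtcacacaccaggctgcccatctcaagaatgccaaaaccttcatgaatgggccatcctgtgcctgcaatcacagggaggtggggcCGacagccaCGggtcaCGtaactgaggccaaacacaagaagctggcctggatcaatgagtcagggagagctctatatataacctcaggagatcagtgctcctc
IVL (chr1:152880722-152881021, plus strand): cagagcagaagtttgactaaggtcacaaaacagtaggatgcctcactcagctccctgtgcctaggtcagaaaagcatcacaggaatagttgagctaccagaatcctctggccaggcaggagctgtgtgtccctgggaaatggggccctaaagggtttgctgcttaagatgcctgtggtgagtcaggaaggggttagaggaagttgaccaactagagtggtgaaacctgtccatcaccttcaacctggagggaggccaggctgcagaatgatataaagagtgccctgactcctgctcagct
S100A8 (chr1:153363550-153363849, minus strand): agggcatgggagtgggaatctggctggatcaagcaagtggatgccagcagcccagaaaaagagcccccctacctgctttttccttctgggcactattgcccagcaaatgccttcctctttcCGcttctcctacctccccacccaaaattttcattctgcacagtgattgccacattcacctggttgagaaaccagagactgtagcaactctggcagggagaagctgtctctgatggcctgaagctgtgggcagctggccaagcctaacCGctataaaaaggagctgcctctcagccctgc
S100A9 (chr1:153330030-153330329, plus strand): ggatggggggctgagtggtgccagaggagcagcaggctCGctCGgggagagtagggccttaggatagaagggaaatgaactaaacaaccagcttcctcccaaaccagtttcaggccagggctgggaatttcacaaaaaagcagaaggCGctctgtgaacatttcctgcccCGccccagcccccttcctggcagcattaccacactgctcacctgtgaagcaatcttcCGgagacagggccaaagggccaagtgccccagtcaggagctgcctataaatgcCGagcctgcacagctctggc
S100A11 (chr1:152009481-152009780, minus strand): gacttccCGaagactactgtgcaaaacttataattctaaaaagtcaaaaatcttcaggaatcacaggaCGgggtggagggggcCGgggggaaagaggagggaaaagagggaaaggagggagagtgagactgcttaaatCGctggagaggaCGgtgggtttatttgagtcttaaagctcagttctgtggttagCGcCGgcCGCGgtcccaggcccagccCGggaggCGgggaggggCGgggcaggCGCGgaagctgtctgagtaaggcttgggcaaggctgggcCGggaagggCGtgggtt

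FLG has 1 CpG site in this stretch, IVL 0, S100A8 2, LORICRIN 3, S100A9 6 and S100A11 16. None of the 2 windows that overlap the stretch was listed for FLG or for IVL. Of the 2 windows at LORICRIN 1 was listed, and the single windows at S100A8 and S100A9 were both listed. The median over the 67 protein-coding genes that start inside the complex was 2 CpG sites, against 19 over the other 1958 genes of chromosome 1. The TATA box sequence TATAAA was searched on both strands and was present in 35 of the 67 stretches (52.2%, 95% Wilson interval 40.5 to 63.7), against 11.2% of the other genes (9.86 to 12.7). It starts at position -30 in FLG and IVL and at -29 in S100A8 and S100A9, and is not present in LORICRIN or S100A11. Only these exact letters were searched, and the LORICRIN stretch holds the similar letters tatatataa. The sequence TGAGTCA, the consensus of the AP-1 factors, was present on either strand in 13 of the 67 stretches (19.4%, 11.7 to 30.4), against 4.24% of the other genes (3.43 to 5.22). Of these 13 genes, 7 were among the 10 SPRR genes, and IVL and LORICRIN carry it at positions -123 and -48. The other genes were not matched for base composition. Genes of a family are related in sequence, so that the stretches are not separate draws. These matches describe the letters of the reference and do not report on binding.

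Across the complex, the share of windows listed was close to that of the genome and well under that of its neighbourhood. It was 18.8% in the complex (675 of 3600, 95% Wilson interval 17.5 to 20.1), with a background of 17.6% over all autosomal windows. In the 2 Mb on the lower side it was 34.7% (1387 of 4000, 33.2 to 36.2) and in the 2 Mb on the upper side 41.0% (1641 of 4000, 39.5 to 42.6). The share in the complex was 15.9 percentage points under that of the lower side (interval 14 to 17.9) and 22.3 points under that of the upper side (20.3 to 24.2). The intervals treat each window as a separate draw, which adjacent windows are not, and the table has no replicate, so that they describe counting error only and no test was made.

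The 3 intervals differed in base composition. The mean number of CpG sites in a window was 4.37 in the complex, 7.40 on the lower side and 8.17 on the upper side, and the GC content was 42.7%, 44.8% and 47.2%. A predicted share was therefore computed from all autosomal windows, as the share listed among those that match a window in CpG number and in GC content. It was 17.7% for the complex, 25.4% for the lower side and 29.8% for the upper side. The ratio of the listed to the predicted share was 1.06 in the complex (0.991 to 1.14), 1.36 on the lower side (1.31 to 1.42) and 1.37 on the upper side (1.32 to 1.43). The complex thus lay near the prediction and both sides lay above it. Set against chromosome 1 outside these intervals, the ratio of the complex was 0.983, so that its side of 1 is not settled.

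The same order was seen within classes of CpG number, except in the richest class, where the complex and the lower side had the same share. Among windows with 3 or 4 CpG sites, 17.0% were listed in the complex (157 of 924), 28.7% on the lower side and 29.2% on the upper side, against 12.8% over the autosomes. Among windows with 5 to 7 CpG sites, the shares were 28.8% in the complex (180 of 626), 39.6% and 41.8% on its sides, and 24.2% over the autosomes. With 13 or more CpG sites, the complex had 44% (80 of 182), the lower side 44%, the upper side 54.5% and the autosomes 47.9%. With 0 CpG sites and from 8 CpG sites upwards the intervals of the complex and the lower side overlap. Within the complex, the listed windows had a median of 5 CpG sites (quartiles 3 and 9) and the windows that were not listed a median of 3 (quartiles 1 and 5). The most CpG sites in a listed window was 56, in NPR1, and in a window not listed 65, at S100A10 and in LORICRIN.

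The complex was not uniform. In steps of 100 kb from the lower bound, the share of windows listed ran from 2.0% to 62.5%, and the ratio to the prediction from 0.132 to 2.29. The ratio was below 1 in 11 of 18 steps of the complex, in 2 of 20 on the lower side and in 3 of 20 on the upper side. All 11 lay between 200 and 1500 kb from the lower bound, an inner stretch delimited after its values were seen. This stretch runs from RPTN to S100A7A and had 272 of 2600 windows listed (10.5%, ratio 0.708, 0.632 to 0.791). The remaining 5 steps, at both ends, had 403 of 1000 listed (40.3%, ratio 1.60, 1.48 to 1.72). Over windows of unique sequence, 209 of 1771 were listed in the inner stretch with 246 expected, and 237 of 576 at the ends with 139 expected. Unique here means that each 50-base sequence of the window, the read length, occurs once in the genome. The lowest step held FLG, with 4 of 200 windows listed against 15.1% predicted. The step with LCE2D, LCE2C, LCE2B, LCE2A, LCE4A and C1orf68 followed, with 6 of 200 against 12.8%. The highest share was in the step from S100A6 to S100A13, with 125 of 200 windows against 33.2% predicted, and the highest ratio in the first step, which holds S100A10, with 81 of 200 against 17.7%.

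**Figure D1:**
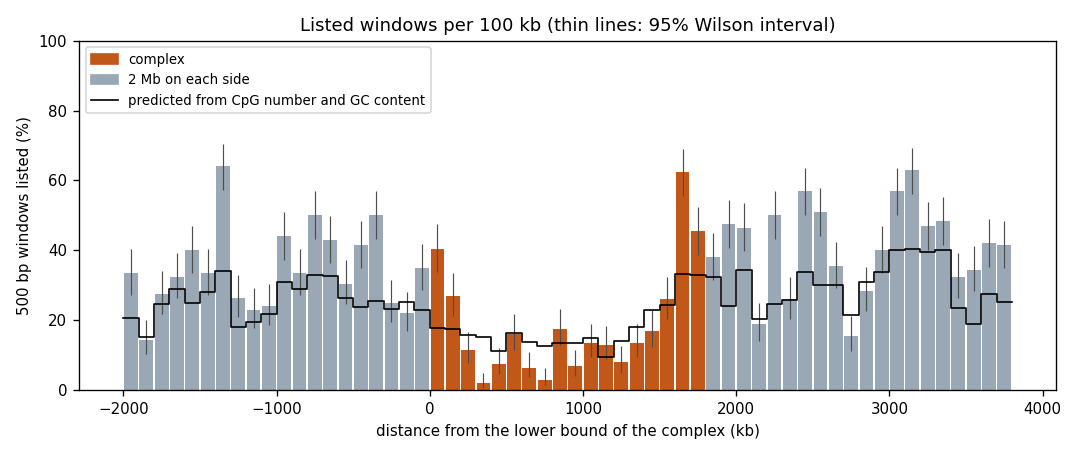
Share of 500 bp windows listed (y axis, percent) in 100 kb steps by distance from the lower bound of the complex (x axis, kb), with the complex in orange and 2 Mb on each side in grey; thin vertical lines are 95% Wilson intervals and the black line is the share predicted from CpG number and GC content. The inner steps of the complex lie between 2.0% and 17.5%, and 2 steps at the upper end reach 62.5% and 45.5%.

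The windows of each gene were counted from 3000 bp upstream of the canonical start to the end of the gene and summed by family. The S100 family (16 genes) had 112 of 221 windows listed (50.7%, ratio 1.62, 1.41 to 1.83). The SPRR family (10 genes) had 20 of 112 (17.9%, ratio 1.39, 0.921 to 2.02), and the 7 genes grouped as single genes of the cornified envelope had 16 of 79 (20.3%, ratio 0.994, 0.632 to 1.49). This group also takes in SMCP, which encodes a sperm mitochondrial protein and had 3 of 19 windows listed. The LCE family (18 genes) had 14 of 148 (9.46%, ratio 0.547, 0.331 to 0.882), the fused-type S100 family (7 genes) 24 of 184 (13%, ratio 0.561, 0.384 to 0.803), and PGLYRP3 and PGLYRP4, which encode bactericidal proteins that bind peptidoglycan, 9 of 82 (11%, ratio 0.490, 0.263 to 0.874). The 7 remaining genes had 65 of 137 (47.4%, ratio 1.51, 1.25 to 1.77). The intervals of several families overlap, differences between families were not tested, and members of a family are mostly neighbours. The 2640 windows outside these genes had 15.8% listed, with a ratio of 1.02.

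**Figure D2:**
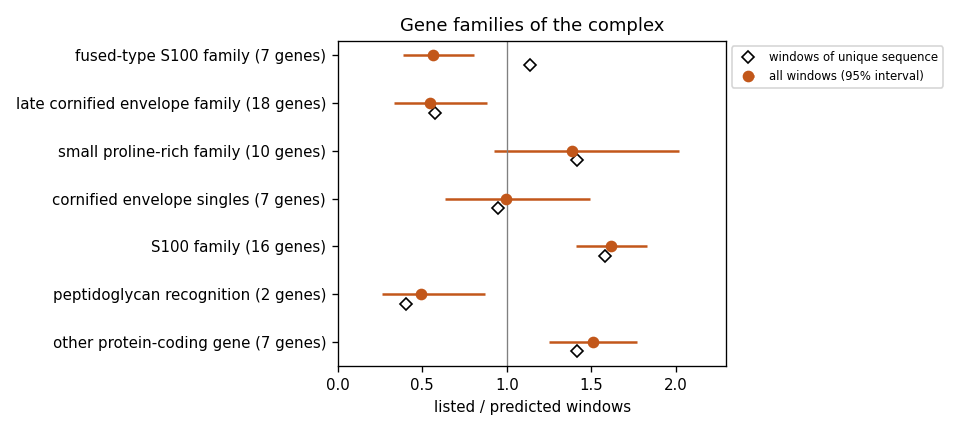
Ratio of listed to predicted windows (x axis) for each gene family of the complex (y axis), counted from 3000 bp upstream to the end of each gene; points with lines are all windows with the 95% Wilson interval, and open diamonds count only windows whose 50-base sequences all occur once in the genome. The S100 family lies at 1.62 and the LCE family at 0.547, and the fused-type S100 family moves from 0.561 to 1.14 with unique windows.

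The S100 genes were not uniform. S100A4, a calcium-binding protein known for its role in motility and in epithelial-mesenchymal transition, had all of its 13 windows listed, with 6.03 expected from the prediction. S100A5 had 13 of 14 (5.08 expected) and S100A3, which overlaps S100A4, 8 of 9 (3.76 expected). The longest run of consecutive listed windows of the complex, 23 windows from chr1:153512501-153524000, covers S100A3 and S100A4 and a part of S100A5 and lies between S100A6 and S100A2. The windows of this run had a mean of 6.78 CpG sites, and 9.69 of them were expected to be listed. The run was chosen because all its windows were listed, so that this contrast was fixed and is no test. S100A14 had 9 of 11 windows listed, S100A6 7 of 9 and S100A13 17 of 25 (8.62 expected). S100A1, which overlaps S100A13 on the opposite strand, had 8 of 13 (5.55 expected). S100A2 with 9 of 16 (6.62 expected) and S100A16 with 10 of 18 (7.71 expected) were nearer to the prediction. Of the 16 genes, 13 had more listed windows than expected, and over the unique windows of the family 88 of 158 were listed with 55.7 expected. Neighbouring genes of this family share windows, so that their counts are not independent. At the lower end, S100A10, the partner of annexin A2, had 9 of 28 windows listed (6.17 expected) and S100A11 16 of 31 (6.85 expected).

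S100A8 and S100A9 encode the subunits of calprotectin, an antimicrobial complex of neutrophils and stressed keratinocytes. S100A8 had 6 of 8 windows listed (2.22 expected) and S100A9 6 of 12 (4.54 expected), and both start windows were listed, with 3 and 8 CpG sites. S100A12, between them, had 2 of 10 (2.00 expected). In contrast, none of the 19 windows of S100A7A and none of the 12 windows of S100A7 (psoriasin) was listed, with 4.35 and 2.94 expected. These 2 paralogs are similar in sequence, and 3 windows of S100A7A and 0 of S100A7 have 50-base sequences that all occur once in the genome. The authors kept uniquely mapped reads, and the part of this step in the absence of these windows was not tested.

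Among the fused-type S100 genes, FLG had 0 of 52 windows listed, although 14.7 were expected. FLG lies in the longest stretch of the complex without a listed window, 100.5 kb from chr1:152251001-152351500, which also holds FLG2. In this stretch 201 consecutive windows were not listed, with 28.4 expected. It was chosen for having no listed window, so that the count was fixed and the expected number describes its composition only. The longest such stretches of the lower and the upper side were 24.5 and 23 kb. Both sides had a larger share of windows listed, and these lengths were not compared with a matched background. FLG2 had 0 of 29 windows listed (4.15 expected), RPTN (repetin) 0 of 17 (2.58 expected) and HRNR 2 of 30 (11 expected). TCHHL1 with 5 of 16 (1.46 expected), TCHH with 9 of 24 (5.57 expected) and CRNN (cornulin) with 8 of 16 (3.23 expected) were above the prediction, so that the family held both kinds.

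The 7 genes differ in repeated sequence. The share of 50-base sequences in their windows that occur more than once in the genome was 31.4% at HRNR, 14.9% at FLG, 4.73% at FLG2, 1.91% at TCHHL1 and TCHH, 1.82% at CRNN and 0.522% at RPTN. The part of repeats in these counts was not tested. Restricted to windows of unique sequence, and with the prediction made from such windows, FLG had 0 of 30 listed with 2.15 expected, HRNR 2 of 16 with 2.74 expected, and the family 19 of 126 with 16.7 expected, a ratio of 1.14 in place of 0.561. Without FLG the ratio of the family was 0.856 over all windows. The stretch around FLG and FLG2 had 0 of 119 unique windows listed, with 8.28 expected. This count was likewise fixed by the choice of the stretch and tests nothing.

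The LCE genes, a cluster of short genes, had few listed windows throughout. Between 0 and 2 windows were listed at each of the 18 genes, and 3 genes had more than expected. LCE3D had 2 of 8 (1.37 expected) and LCE3E 2 of 9 (1.16 expected), whereas LCE3C had 0 of 8 (1.18 expected) and LCE3B 0 of 6 (0.887 expected). LCE3B and LCE3C lie in a stretch of 32.5 kb without a listed window. Their windows are all of unique sequence, and over the unique windows of the family 9 of 101 were listed with 15.6 expected, a ratio of 0.577. Another stretch without a listed window, 49 kb from chr1:152803501-152852500, is exceeded in the complex only by the one around FLG. It holds LCE6A, LCE7A and a part of SMCP, a sperm mitochondrial protein. It too was chosen for having no listed window, and 11.5 of its windows were expected to be listed. LCE3A has the start window with the most CpG sites of the family, 19, and this window was listed.

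KPRP, which encodes a proline-rich protein of keratinocytes and lies between C1orf68 and LCE1F, had 11 of 14 windows listed (4.33 expected). A run of 10 consecutive listed windows, chr1:152729501-152734500, covers nearly all of the gene, and over its 12 unique windows 9 were listed. KPRP was in none of the gene lists used for the families, and neither were LCE7A, with 0 of 8 windows (1.20 expected), or SPRR5, with 1 of 10 (2.12 expected). They are counted with 4 genes at the upper end, CHTOP, SNAPIN, ILF2 and NPR1. Of these CHTOP, a chromatin-associated protein, had 19 of 31 (9.26 expected) and NPR1, the receptor for atrial natriuretic peptide, 19 of 37 (15.3 expected).

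Among the SPRR genes, SPRR2A and SPRR2B had 4 of 9 windows each (0.958 expected for each), of which 3 each were in the 3000 bp upstream. SPRR1A had 3 of 10 (2.03 expected) and SPRR3 3 of 11 (2.01 expected). SPRR2E had 2 of 26 (2.01 expected) and SPRR2G 0 of 9 (0.874 expected). The SPRR2 genes are close copies, with 2 unique windows of 9 at SPRR2B and 5 of 9 at SPRR2A, so that their counts are uncertain. The ratio of the SPRR family was 1.39 over all windows, with an interval that included 1, and over unique windows 13 of 66 were listed with 9.20 expected. With the gene body alone the ratio was 1.00.

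IVL had 4 of 13 windows listed (2.29 expected), 3 of them in the 3000 bp upstream, while its start window, with 4 CpG sites, was not listed. LORICRIN had 3 of 11 (2.59 expected), with its start window listed and none of the 6 upstream windows. The 2 windows inside the LORICRIN gene with the most CpG sites, 65 and 48, were not listed, and both are of unique sequence. In TCHH, 4 of the 7 windows with 37 to 49 CpG sites were listed, and in NPR1 all 3 windows with 44 to 56 were. Of the other genes grouped with IVL and LORICRIN, CRCT1 had 3 of 9 (2.66 expected), PRR9 2 of 10 (1.71 expected), SMCP 3 of 19 (3.68 expected), LELP1 1 of 9 (1.75 expected) and C1orf68 0 of 8 (1.41 expected). Downstream of LORICRIN, PGLYRP3 had 3 of 38 windows listed (8.75 expected) and PGLYRP4 6 of 44 (9.62 expected), and over their unique windows 6 of 62 were listed with 14.9 expected.

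**Figure D3:**
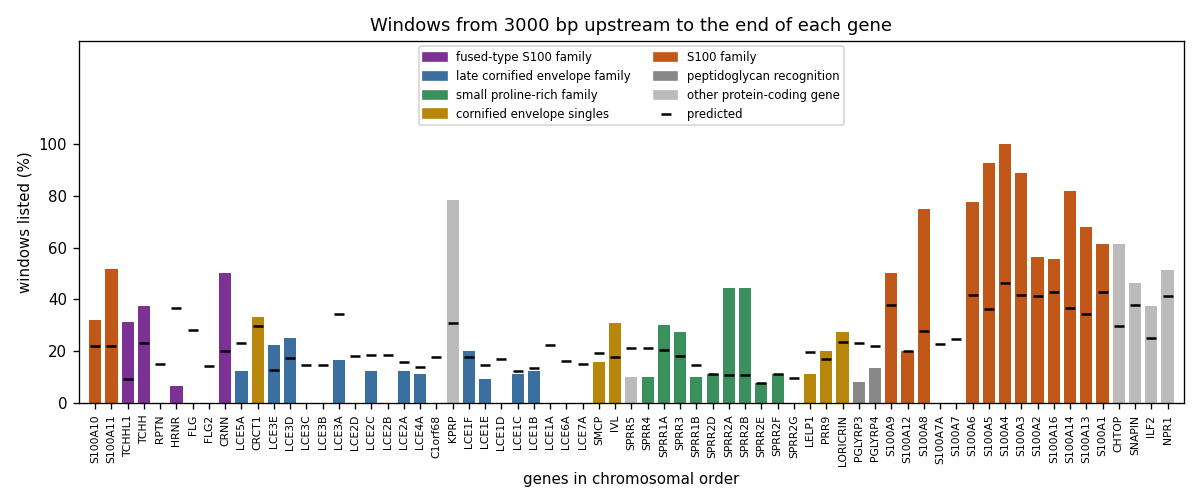
Share of windows listed (y axis, percent) from 3000 bp upstream to the end of each of the 67 genes in chromosomal order (x axis), coloured by family; black marks are the predicted share. All 13 windows of S100A4 were listed. Of the 67 genes, 52 had a listed window, and FLG, S100A7 and S100A7A are among those with none.

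In the 3000 bp upstream of the start, 43 of the 67 genes had a listed window (64.2%, 95% Wilson interval 52.2 to 74.6), with a background of 76.6% over 18978 autosomal protein-coding genes. These shares are not matched for CpG number. Within classes of the number of CpG sites in the start window, the share of genes was 55.3% in the complex and 40.8% over the autosomes with 4 or fewer, 66.7% and 62.8% with 5 to 9, and 90.9% and 81.9% with 10 or more. The lower share of genes in the complex was therefore not seen within these classes. By windows, 111 of the 402 upstream windows of the complex were listed, with 78.7 expected. Upstream windows of autosomal genes also lay above the prediction. From -3000 to -2500 bp 34.1% were listed with 25.7% predicted, and from -1000 to -500 bp 47.9% with 33.2% predicted. Nearest to the start, from -500 to 0 bp, they were close to it (35.8% and 35.3%). An excess upstream is thus not particular to the complex. By family, the count of genes was 13 of 16 S100 genes, 7 of 10 SPRR genes, 9 of 18 LCE genes and 4 of 7 fused-type S100 genes, and differences between families were not tested. Of the windows, 59 of 96 were listed upstream of S100 genes with 32.3 expected, 14 of 60 upstream of SPRR genes with 8.18 expected, 9 of 108 upstream of LCE genes with 13.8 expected, and 8 of 42 upstream of fused-type S100 genes with 3.83 expected. The fused-type S100 genes were thus below the prediction over all windows and above it upstream. Over unique windows the family was not below it, with 19 of 126 listed and 16.7 expected. The upstream windows were not counted by unique sequence.

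The starts of the complex differ from most starts of the genome in CpG number. Of the 67 start windows, 38 have 4 or fewer CpG sites (56.7%), against 8.57% of autosomal start windows. Of these 38 start windows 12 were listed (31.6%, 19.1 to 47.5), and of the autosomal ones with 4 or fewer CpG sites 18.3% (16.5 to 20.2). Of the 11 with 10 or more CpG sites 4 were listed (36.4%, 15.2 to 64.6), against 26.5% over the autosomes, and the start windows of S100A10, CHTOP and SNAPIN, with 65, 43 and 43, were not listed. In the 500 bp upstream of the start, 28 of 67 windows were listed (41.8%, 30.7 to 53.7) with 24.7% predicted, and in the 500 bp downstream 23 of 67 (34.3%, 24.1 to 46.3) with 26.8% predicted. Over the autosomes the share in these bins was 35.8% and 25.4%, with 35.3% and 35.6% predicted. The intervals of the complex include the autosomal share upstream and downstream, and no difference between the profiles was tested.

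**Figure D4:**
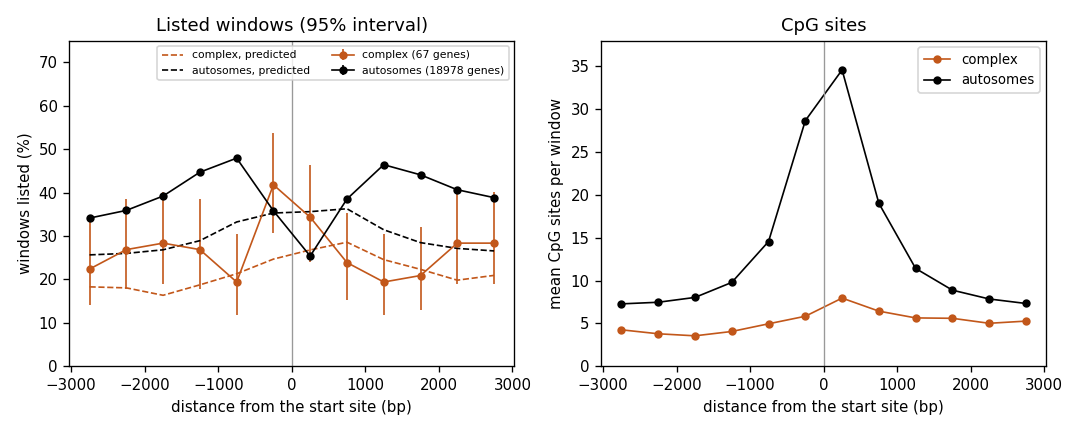
Left, share of windows listed (y axis, percent, with 95% Wilson intervals) and predicted share (dashed) in 500 bp bins by distance from the start site (x axis, bp) for the 67 genes of the complex and 18978 autosomal genes; right, mean CpG sites per window in the same bins. In the complex the share is highest just upstream of the start, at 41.8%, where the mean number of CpG sites is 5.84 against 28.7 over the autosomes.

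By position, 72.7% of the listed windows of the complex lay between genes, 20.1% in introns and 7.11% in exons of the canonical transcripts. Introns here are all windows inside the bounds of a gene but outside the exons of its canonical transcript. Some of them lie upstream of the canonical start, as at S100A11, S100A2 and SPRR2E. Relative to the prediction, introns were at 1.42 (136 of 394 windows, 1.23 to 1.62), exons at 0.658 (48 of 218, 0.509 to 0.836) and positions between genes at 1.05 (491 of 2988, 0.969 to 1.14). The shares over all introns and exons of the autosomes were not analysed. Whether these ratios are particular to the complex is therefore not known. The exon windows include the repeats of FLG and HRNR, and 59.2% of them are of unique sequence, against 71.6% of the intron windows. Over unique windows the exons were no longer below the prediction, with 43 of 129 listed and 40.3 expected, while 89 of 282 intron windows were listed with 69.9 expected. The 675 listed windows formed 278 runs, of which 113 were single windows and 76 had 3 or more. Stretches of 10 kb or more without a listed window numbered 37 in the complex, 12 on the lower side and 10 on the upper side. Each side is longer than the complex and had a larger share of windows listed, and these counts were matched for neither.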

How the data were processed

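The deposited table lists 500 bp windows of hg19. Per the methods, the authors mapped reads of 50 bp with Bowtie 0.12.7, kept unique and monoclonal reads and used MEDIPS. The rule by which windows were kept is not stated in the labels or methods. The file name of the table implies a floor on read counts, and whether one was applied was not tested. The 4 value columns match no sample label and were not used. The methods give a lower limit for the reads of a sample, and the depth of each library in the table was not analysed here. Only window positions were analysed, read from the start and stop columns. No listed window exceeded the chromosome lengths of GRCh37 on the 24 chromosomes compared.

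Windows without an undetermined base were classed by CpG sites (40 or more as 1 class) and GC content in steps of 25 bases, and the predicted share was that of autosomal windows of the same class. Intervals are 95% Wilson intervals of counts, or combine them for differences, and cover counting error only. The calculation of the ratio was tested on simulated data, which is a check of the calculation only and no support for the values found. Unique windows are those whose 451 sequences of 50 bases each occur once in GRCh37 on both strands, by exact match, which is not identical to the mapping of the authors. Genes, canonical transcripts and starts are from GENCODE version 44 lifted to GRCh37. A window belongs to a gene by its midpoint. The text names the markers, the 2 genes with most and fewest listed windows in each family, and the genes at the longest runs and gaps, and any other gene was named after its values were seen. The members and gene lists were chosen with earlier results of these data known. The work used numba 0.67.0, Matplotlib 3.10.9, pandas 2.3.3, Python 3.11.15, SciPy 1.17.1 and NumPy 2.4.6.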

Additional observations from a re-analysis of the deposited data

How the results depend on the processing

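No paired analysis was possible because no column could be assigned to a condition or a replicate, and so no library could be left out. With the bounds set from S100A10 to S100A1 the share listed in the complex was 16.3%. With 1 Mb sides it was 37.5% on the lower and 38.6% on the upper side, and with unique windows 31.8% on the lower side. The ratio of listed to predicted windows in the complex was 1.06. It was 1.16 with unique windows, 1.20 with CpG number alone and 0.983 with the prediction from chromosome 1, so that its side of 1 depends on the prediction. On the lower side the ratio was 1.97 with no prediction and 1.30 from chromosome 1, and on the upper side 2.33 with no prediction, 1.504 with CpG number alone and 1.32 with unique windows. The ratio of the S100 family was 2.88 with no prediction and 2.12 with the CpG number alone. That of the fused-type S100 family turned to 1.14 with unique windows, and was 0.856 without FLG, an alternative chosen after seeing the data. The LCE family stayed between 0.424 and 0.715 and the SPRR family between 1.00 and 1.77. In the fused-type S100, LCE, SPRR and S100 families, no other gene left out in turn moved the ratio by over 1.5 times, and the other groups were not run. The number of genes of the complex with a listed window upstream was 43. It was 39 with 1500 bp (66.2% of autosomal genes), 47 with 5000 bp (81.9%), 42 from the 5′ end of the gene (75.8%) and 46 with any overlap (78.4%).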

Other observations

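Some of the longest runs of listed windows in the complex lie between genes. The runs and the stretch named here were chosen by their listing. The expected numbers therefore describe their composition and test nothing. A run of 14 windows, chr1:153529001-153536000, ends inside S100A2, with 3.92 expected. Runs of 10 windows each lie between S100A10 and S100A11, chr1:151999001-152004000 (2.35 expected), and between S100A7 and S100A6, chr1:153485001-153490000 (3.20 expected), and a run of 9 between LORICRIN and PGLYRP3, chr1:153263001-153267500 (3.76 expected). A stretch of 33.0 kb between CRNN and LCE5A, chr1:152417001-152450000, had no listed window with 9.92 expected. A listed window with 41 CpG sites lies between genes, upstream of RPTN.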
